A study of Homo sapiens with 4 samples.

Results

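Amino acid transporters of the SLC1, SLC3, SLC6, SLC7, SLC36, SLC38 and SLC43 families were followed through ribosome footprints and matched RNA of 2 lines derived from SW480, a human cell line established from a colorectal adenocarcinoma. The genes were taken by name: each symbol that begins with a family prefix and a digit in all 4 count tables. Of 19192 genes listed, 60 names matched. One of them, SLC7A6OS, is not a transporter but the gene on the opposite strand of SLC7A6, and the other 59 are described here. One line was labelled as overexpressing LIN28B, an RNA-binding protein that blocks let-7 maturation (OE-labelled). The second line carried the label of LIN28B overexpression with a homozygous knockout of IMP1, which is the product of IGF2BP1 and also binds RNA (knockout-labelled). Each line gave 1 RNA library and 1 footprint library, each from 3 pooled culture plates, so no value below has a replicate check and no p-value was computed. Whether either line is a single clone is not stated in the labels. Each ratio divides the knockout-labelled by the OE-labelled value, and its 95% interval covers counting error alone. In such bulk libraries, fewer cells with a transcript and less of it per cell cannot be told apart. Pairs of values below give the OE-labelled library before the knockout-labelled one.

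Cells take up amino acids through carriers that differ in substrate and coupling. The SLC1 proteins are sodium-coupled carriers of glutamate or of small neutral amino acids such as glutamine. The SLC3 proteins are heavy chains that bring SLC7 light chains to the plasma membrane, where the pair exchanges amino acids. SLC38 proteins carry glutamine and other small neutral amino acids with sodium, several SLC36 and SLC38 proteins act at the lysosome, and some SLC6 members carry neurotransmitters, taurine or creatine in place of protein amino acids. In intestinal and colorectal cells these carriers supply glutamine and essential amino acids for protein synthesis and for mTORC1 signalling.

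The RNA libraries held 5429224 (OE-labelled) and 6813372 counts, and the footprint libraries held 2732760 and 3260262. The transporters held between 0.358% and 0.457% of the counts of each library. The targeted gene was higher, not lower, under the knockout label: IGF2BP1 had 840 and 1974 RNA counts and 332 and 821 footprint counts. LIN28B had 1205 and 303 RNA counts, so the lines also differed in the gene that both were labelled as overexpressing. All directions below are therefore between libraries carrying these labels. Of 11 markers of intestinal epithelium, 7 were measured in RNA and 4 (CDH17, CDX1, KRT20 and LGALS4) had no count in any library. In RNA the markers summed to 10441 and 4955 CPM (counts per 1000000 after scaling for depth), against at most 38.1 for haematopoietic, stromal and muscle, or neural markers. PTPRC, COL1A2 and DCN had no count. The part of the lower epithelial marker level in the results below was not tested.

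A gene was called measured with a mean of at least 50 counts over the 2 libraries of an assay. In RNA 23 of the 59 transporters were measured and in footprints 13, with 12 in both and 24 in at least 1 assay. A few carriers made up most of the transporter counts. The 7 most abundant held 83.7% of transporter counts in each RNA library and 90.2% and 90.3% in the OE-labelled and knockout-labelled footprint libraries. Levels of different genes are given as CPM per kilobase of coding length. On that scale SLC7A5, the light chain LAT1 that exchanges large neutral amino acids, led in RNA with 691 and 722. In footprints SLC1A5, the glutamine carrier ASCT2, was first in the OE-labelled library (1088) and SLC3A2, the heavy chain CD98, in the knockout-labelled library (584). The RNA order depended on the length used: per kilobase of the whole listed transcript, SLC1A5 led the OE-labelled RNA library (307, beside 232 for SLC7A5) and SLC3A2 the knockout-labelled one (253, beside 242), the same genes as in footprints. SLC7A5 footprints stood below those of SLC1A5, SLC3A2, SLC38A2 and SLC7A1 in both lines, at 199 and 187.

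**Figure D1:**
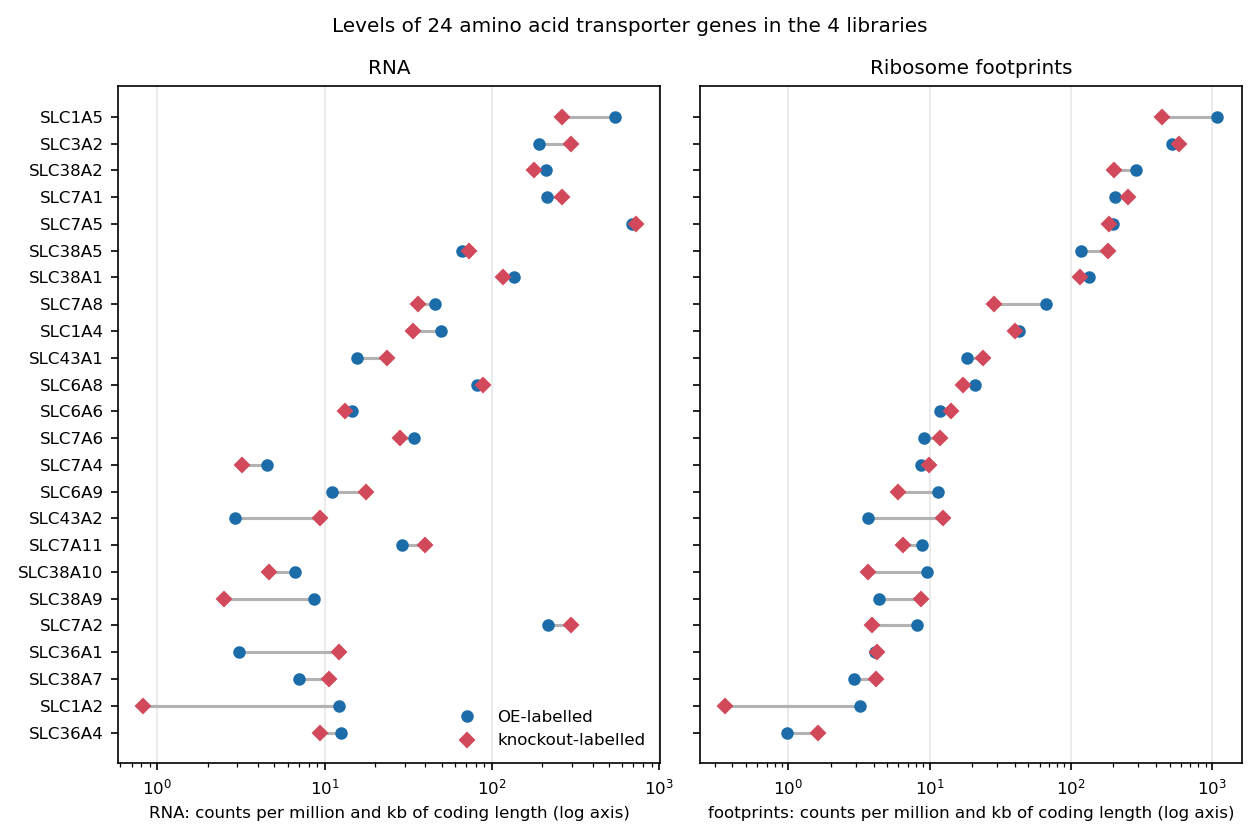
Level of each of the 24 transporter genes measured in at least 1 assay, in CPM per kilobase of coding length on a log axis, for RNA (left) and footprints (right); circles are the OE-labelled and diamonds the knockout-labelled library, 1 library each. SLC1A5, SLC3A2, SLC38A2, SLC7A1 and SLC7A5 hold the highest footprint levels, and SLC7A2 is among the highest in RNA but stands at 8.11 and 3.93 in footprints.

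Between the lines, transporters were found on both sides of 0 in each assay. In RNA, 4 of 23 measured members (SLC36A1, SLC43A2, SLC6A9 and SLC3A2) were at least 1.5-fold higher in the knockout-labelled library, against 10.5% of all 9855 measured genes, and 3 (SLC1A2, SLC38A9 and SLC1A5) were at least 1.5-fold lower, against 10.5%. At 2-fold the counts were 2 higher (2.99% of all genes) and 3 lower (3.49%), and each of these except SLC1A5 had a library under 50 counts. The median log2 RNA ratio of the 23 was 0.06, beside 0.01 over all measured genes. In footprints, SLC38A5 alone of 13 measured members was at least 1.5-fold higher (15.0% of 7323 genes), and SLC1A5 and SLC7A8 were lower (14.1%). None was 2-fold higher (4.66% of all genes) and the same 2 were 2-fold lower (4.44%). The median footprint ratio was -0.09, beside 0.02 over all measured genes. The 4 members with an RNA library under 50 counts (SLC1A2, SLC36A1, SLC38A9 and SLC43A2) passed the minimum through the library in which they were high and so had to differ. Among the 19 with at least 50 counts in both RNA libraries, 2 were higher (SLC3A2 and SLC6A9) and 1 was lower (SLC1A5), against 8.23% and 9.87% of the 9232 genes that met the same condition.

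**Figure D2:**
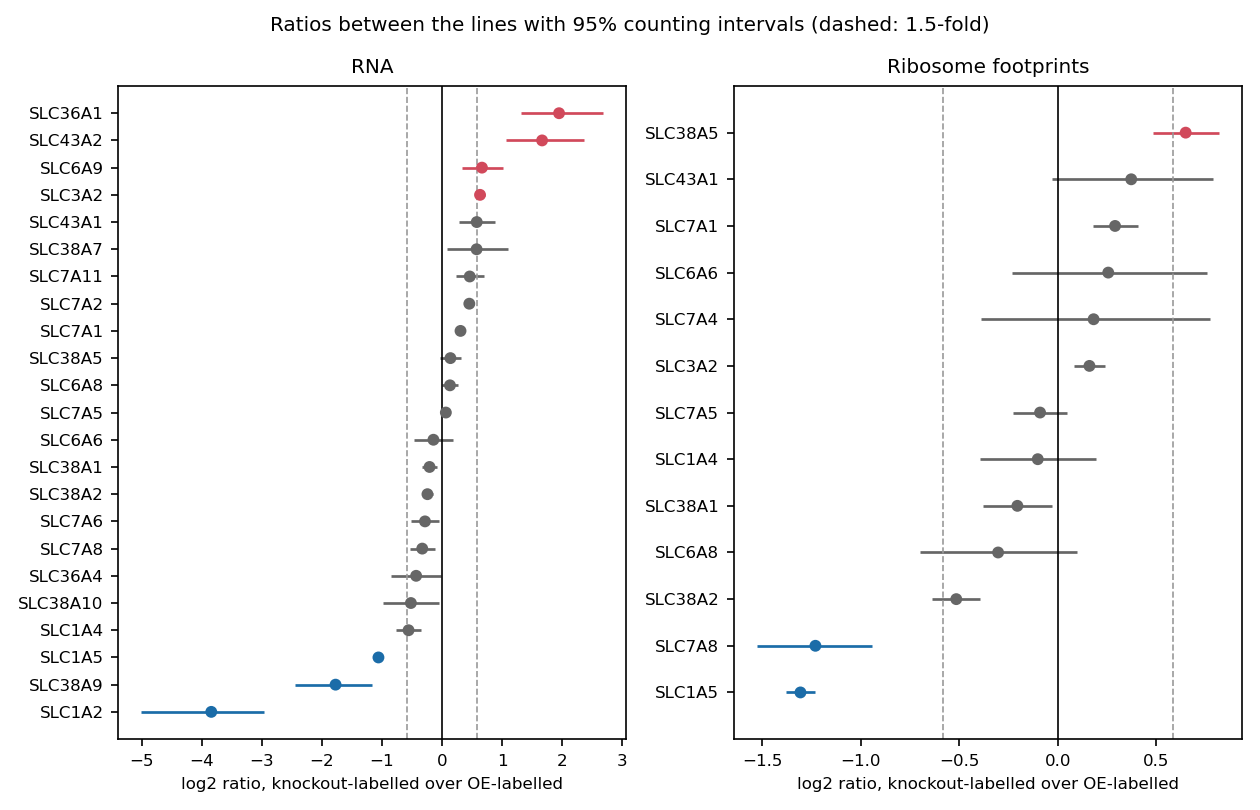
Log2 ratio of knockout-labelled over OE-labelled counts, scaled for depth, for the 23 members measured in RNA (left) and the 13 measured in footprints (right); points are ratios, lines are 95% counting intervals, and dashed lines mark 1.5-fold. SLC36A1 and SLC43A2 stand furthest to the right in RNA and SLC1A2 furthest to the left at -3.84, while SLC1A5 and SLC7A8 lie apart from the other members in footprints.

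The member with the largest difference among the abundant carriers was SLC1A5 (transcript ENST00000542575, chromosome 19, 46774883 to 46788594, minus strand, GRCh38). Its RNA counts were 4608 in the OE-labelled and 3013 in the knockout-labelled library, and its footprint counts were 4790 and 2346. Both assays were thus low in the knockout-labelled line. RNA was 2.08-fold lower (log2 ratio -1.06, 95% interval -1.12 to -0.99), and footprints were 2.47-fold lower (-1.31, -1.38 to -1.23). Of all measured genes, 3.07% had a lower RNA ratio. The nearest 20 measured genes on the chromosome had a median RNA ratio of -0.27, and SLC1A5 stood at -0.79 once that was subtracted. SLC1A5 was the sole transporter measured in both assays that was at least 1.5-fold different in the same direction in RNA and footprints.

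The other SLC1 genes were less abundant. SLC1A4, which encodes the neutral amino acid carrier ASCT1, had 415 and 384 RNA counts and 186 and 210 footprint counts. Its RNA ratio was -0.56 (-0.76 to -0.35), just under 1.5-fold lower, while the interval of its footprint ratio crossed 0 (-0.10, -0.39 to 0.19). SLC1A2, the glutamate carrier EAAT2 best known from astrocytes, had 110 and 10 RNA counts and 15 and 2 footprint counts. Both assays were low in the knockout-labelled line, with an RNA ratio of -3.84 (-5.00 to -2.97) and a footprint ratio of -2.91 (-6.36 to -1.08). Summed over the family, SLC1 RNA was 994 CPM in the OE-labelled and 484 in the knockout-labelled library, and footprints were 1858 and 782. SLC1A5 made up most of these sums.

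The heavy chain SLC3A2 (ENST00000377889, chromosome 11, 62856144 to 62888853, plus strand) moved the opposite way to SLC1A5 in RNA. It had 1692 and 3573 RNA counts and 2414 and 3268 footprint counts. RNA was 1.55-fold higher in the knockout-labelled line (0.63, 0.55 to 0.72), and footprints were 1.12-fold higher (0.16, 0.08 to 0.24). After subtraction of the median of its 20 nearest measured genes, SLC3A2 RNA stood at 0.52, under 1.5-fold. The translational efficiency ratio, which is the footprint ratio over the RNA ratio, was accordingly -0.47 (-0.59 to -0.36). Its most abundant light chain gene, SLC7A5 (ENST00000261622, chromosome 16, 87830023 to 87869488, minus strand), had 5476 and 7794 RNA counts and 819 and 932 footprint counts. Scaled for depth these were nearly level, with ratios of 0.06 (0.01 to 0.11) in RNA and -0.09 (-0.23 to 0.05) in footprints. GENCODE lists 2 pseudogenes named after SLC7A5, so its reads cannot be assigned with certainty.

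The 250 bases before the RefSeq start sites of these carriers are shown for the heavy chain that was higher in RNA (SLC3A2), the carrier that was lower in both assays (SLC1A5), the light chain that was level (SLC7A5) and the carrier that was higher in footprints (SLC38A5). They lie at chr11:62855859-62856108 (plus strand), chr19:46788595-46788844, chr16:87869508-87869757 and chrX:48470261-48470510 (minus strand for the last 3; GRCh38.p14). Capitals mark CACGTG, the E-box bound by MYC-family and related factors.
SLC3A2: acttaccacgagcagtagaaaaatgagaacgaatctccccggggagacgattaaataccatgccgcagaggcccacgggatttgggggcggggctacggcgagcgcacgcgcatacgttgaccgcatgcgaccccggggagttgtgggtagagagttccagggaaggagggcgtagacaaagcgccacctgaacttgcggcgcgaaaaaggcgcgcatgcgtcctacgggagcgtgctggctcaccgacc
SLC1A5: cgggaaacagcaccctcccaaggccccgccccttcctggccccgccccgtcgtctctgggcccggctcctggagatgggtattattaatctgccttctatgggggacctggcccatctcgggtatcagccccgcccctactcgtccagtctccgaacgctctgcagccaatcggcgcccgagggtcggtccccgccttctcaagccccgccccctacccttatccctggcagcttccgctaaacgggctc
SLC7A5: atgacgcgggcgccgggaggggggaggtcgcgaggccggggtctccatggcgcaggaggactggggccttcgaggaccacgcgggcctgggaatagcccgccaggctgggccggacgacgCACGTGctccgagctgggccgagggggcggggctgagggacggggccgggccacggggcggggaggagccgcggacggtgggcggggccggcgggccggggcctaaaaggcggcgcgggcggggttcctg
SLC38A5: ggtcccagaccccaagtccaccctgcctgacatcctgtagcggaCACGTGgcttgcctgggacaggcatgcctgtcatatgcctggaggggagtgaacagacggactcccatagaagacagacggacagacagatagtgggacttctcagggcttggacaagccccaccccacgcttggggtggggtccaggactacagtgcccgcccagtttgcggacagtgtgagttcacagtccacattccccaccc
CACGTG was found in 2 of the 19 measured transporters with a RefSeq window, once in SLC7A5 and once in SLC38A5. Of all 35116 promoter windows of this length, 6.34% held it. TGATGNAA, the core of the element bound by ATF4, was found in none of the 19 windows (16 of them within 100 bases of the listed start). It was found in 3.14% of all windows, and at so low a share 19 windows are too few to set the members apart. SLC1A2, SLC6A6, SLC7A2, SLC7A4 and SLC7A11 had no RefSeq window, and sequence outside the 250 bases was not searched. TGACNNNGC, an element bound by NRF2, was found in 2 of the 19, SLC7A1 and SLC7A6, and in 10.9% of all windows. Each motif was searched on both strands, and a match is one of letters in a window, not measured binding.

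Among the other light chains, SLC7A8 stood apart in footprints. SLC7A8 (ENST00000316902, chromosome 14, 23125295 to 23183640), the LAT2 exchanger of neutral amino acids, had 381 and 413 RNA counts and 291 and 150 footprint counts. Its RNA ratio was -0.33 (-0.53 to -0.12) and its footprint ratio was -1.23 (-1.53 to -0.94), 2.35-fold lower. SLC7A11, the cystine and glutamate exchanger xCT, had 227 and 426 RNA counts and 36 and 32 footprint counts. The RNA ratio of SLC7A11 was 0.46 (0.23 to 0.70), and its footprints, under the count minimum, gave -0.44 (-1.18 to 0.28). SLC7A6, the exchanger y+LAT2, had 277 and 310 RNA counts and 38 and 60 footprint counts, with an RNA ratio of -0.28 (-0.52 to -0.04). Its listed transcript overlaps that of SLC7A6OS over 3785 bases on the opposite strand, and the use of strand in counting is not stated, so reads of these genes cannot be told apart there. SLC7A6OS had 84 and 55 RNA counts and 20 and 31 footprint counts.

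The balance of heavy and light chain levels differed between the assays. Per kilobase of coding length, SLC3A2 RNA was 0.236 and 0.357 times the summed RNA of its 6 light chain genes in the OE-labelled and knockout-labelled lines. In footprints the same quotient was 1.80 and 2.50. With RNA taken per kilobase of the whole listed transcript, the RNA quotients were 0.612 and 0.938, so the heavy chain stood just below its light chains in the knockout-labelled RNA library on that scale.

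The cationic amino acid transporters carry arginine and lysine. SLC7A1 (ENST00000380752, chromosome 13, 29509410 to 29595688), the carrier CAT-1, had 2085 and 3515 RNA counts and 1057 and 1566 footprint counts. It was modestly higher in both assays in the knockout-labelled line, with ratios of 0.31 (0.23 to 0.39) in RNA and 0.29 (0.18 to 0.40) in footprints. Its 20 nearest measured genes had a median RNA ratio of -0.32, and with this subtracted SLC7A1 RNA stood at 0.63, past 1.5-fold. SLC7A2, the carrier CAT-2, had 2351 and 4387 RNA counts but 46 and 27 footprint counts. Its RNA was higher in the knockout-labelled line (0.46, 0.38 to 0.53), and its few footprints were lower (-1.03, -1.79 to -0.33). SLC7A4, a related protein whose transport function is unclear, had 45 and 43 RNA counts and 45 and 62 footprint counts, with a footprint ratio of 0.18 (-0.39 to 0.77).

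Of the SLC38 carriers, SLC38A2 and SLC38A1 were the most abundant in RNA. SLC38A2, the SNAT2 carrier that cells induce when amino acids are scarce, had 1675 and 1928 RNA counts and 1192 and 1010 footprint counts. Its ratios were -0.24 (-0.34 to -0.15) in RNA and -0.52 (-0.64 to -0.39) in footprints. SLC38A1, the SNAT1 carrier, had 1027 and 1211 RNA counts and 533 and 560 footprint counts, with ratios of -0.21 in each assay. SLC38A5 (ENST00000620913, chromosome X, 48458537 to 48470256), the SNAT5 carrier of glutamine, asparagine and serine, went the other way. It had 491 and 737 RNA counts and 450 and 855 footprint counts. The interval of its RNA ratio crossed 0 (0.14, -0.03 to 0.31), while its footprints were 1.57-fold higher in the knockout-labelled line (0.65, 0.48 to 0.82), and 0.52 after subtraction of the median of its neighbours, which is under 1.5-fold.

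Lysosomal members had fewer counts. SLC38A9, a lysosomal arginine sensor that signals to mTORC1, had 76 and 30 RNA counts but 20 and 48 footprint counts. The assays pointed in opposite directions: RNA was 3.41-fold lower in the knockout-labelled line (-1.77, -2.45 to -1.16), while the footprint ratio was 0.97 (0.21 to 1.82). SLC38A7, a lysosomal glutamine exporter, had 51 and 104 RNA counts and 11 and 19 footprint counts, with an RNA ratio of 0.58 (0.09 to 1.1). SLC36A1, the proton-coupled carrier PAT1, had 23 and 123 RNA counts and 16 and 20 footprint counts. Its RNA was 3.86-fold higher (1.95, 1.32 to 2.68), and its footprints were level within their wide interval (0.04, -0.98 to 1.09). SLC36A4 had 99 and 100 RNA counts and 4 and 8 footprint counts, with an RNA ratio of -0.43 (-0.85 to -0.01). SLC38A10, whose role is less well described, had 81 and 77 RNA counts and 61 and 28 footprint counts, with ratios of -0.52 (-0.99 to -0.05) and -1.39 (-2.10 to -0.73).

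SLC43A1 and SLC43A2 take up large neutral amino acids without sodium. SLC43A2, the LAT4 carrier, had 26 and 114 RNA counts and 17 and 70 footprint counts. It was high in both knockout-labelled libraries: RNA was 3.17-fold higher (1.67, 1.06 to 2.36) and the footprint ratio, from counts under the minimum, was 1.73 (0.99 to 2.62). SLC43A1, the LAT3 carrier, had 137 and 279 RNA counts and 84 and 132 footprint counts. Its ratios were 0.58 (0.28 to 0.89) and 0.37 (-0.03 to 0.79). When libraries were scaled by total counts, which raised the median RNA ratio of all genes from 0.01 to 0.13, SLC43A1 (0.70) and SLC38A7 (0.69) passed 1.5-fold.

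Of 19 SLC6 genes, 3 were measured. SLC6A8, the creatine carrier, had 804 and 1200 RNA counts and 109 and 107 footprint counts, with ratios of 0.13 (0.00 to 0.26) and -0.30 (-0.70 to 0.10). The pseudogene SLC6A10P is derived from this gene, so its reads are uncertain too. SLC6A6, the taurine carrier, had 141 and 174 RNA counts and 60 and 87 footprint counts, and both of its intervals crossed 0. GENCODE lists a pseudogene of it as well, SLC6A6P1. SLC6A9, the glycine carrier GlyT1, had 110 and 238 RNA counts and 59 and 37 footprint counts. Its RNA was 1.59-fold higher in the knockout-labelled line (0.67, 0.34 to 1.01), and 0.51 after subtraction of the median of its neighbours, which is under 1.5-fold. SLC6A9 footprints, with a mean under the minimum, were lower (-0.94, -1.58 to -0.33).

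Translational efficiency could be compared for the 12 transporters measured in both assays. None was at least 1.5-fold higher in the knockout-labelled line (13.4% of 7260 genes), and SLC7A8 alone was at least 1.5-fold lower (12.9%), at -0.90 (-1.25 to -0.55). None passed 2-fold in either direction (3.65% and 3.60% of all genes). SLC38A5 stood highest at 0.51 (0.28 to 0.74), followed by SLC1A4 at 0.45 (0.11 to 0.80). SLC1A5 stood at -0.25 (-0.35 to -0.15), so its footprint difference exceeded its RNA difference by little. The median of the 12 was -0.18, beside 0.00 over all genes measured in both assays. Of members below the footprint minimum, SLC38A9 had an efficiency ratio of 2.74 (1.78 to 3.70), SLC36A1 one of -1.91 (-3.04 to -0.78), SLC6A9 one of -1.61 (-2.28 to -0.93) and SLC7A2 one of -1.49 (-2.17 to -0.81). Each rests on fewer than 60 footprint counts a library, and those of SLC38A9 and SLC36A1 also on an RNA library of 30 and 23 counts.

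**Figure D3:**
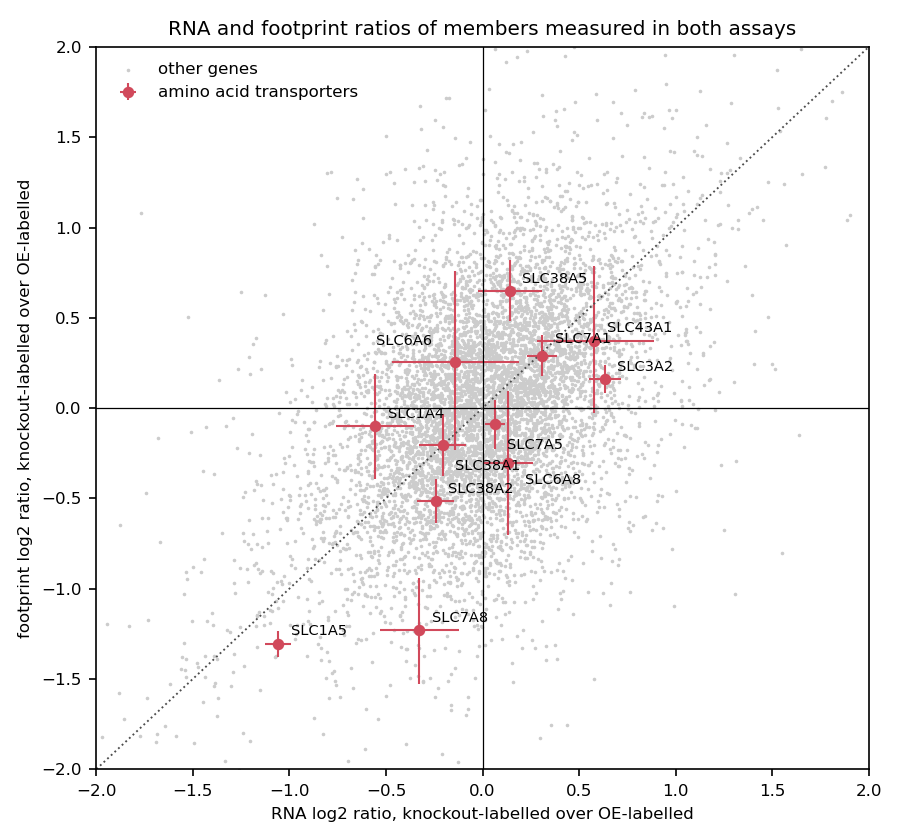
Footprint against RNA log2 ratio (knockout-labelled over OE-labelled) for the 12 transporters measured in both assays (red, with 95% counting intervals) over all other genes measured in both (grey); the dotted line marks equal ratios, and genes past a ratio of 2 on either axis are outside the plot. SLC1A5 lies at the lower left, a little below the dotted line, as does SLC38A2 nearer the centre. SLC3A2 and SLC6A8 lie further below the line and SLC7A8 furthest, while SLC38A5 lies furthest above it.

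Within each line, the ratio of footprints to RNA, each in CPM, set the transporters widely apart. The 23 members measured in RNA ran from SLC7A2 to SLC3A2 in the OE-labelled line and from SLC7A2 to SLC38A9 in the knockout-labelled line. SLC7A2 had a log2 ratio of footprints to RNA of -4.72 (-5.14 to -4.30) in the OE-labelled and -6.21 (-6.75 to -5.67) in the knockout-labelled line. Of 9855 genes measured in RNA, 0.934% and 0.315% had a lower value. SLC7A1, its closest measured relative in function, had nearly the same RNA level per coding length (212 and 263, against 216 and 296 for SLC7A2). In footprints, however, SLC7A1 stood 25.5-fold and 64.3-fold above SLC7A2. SLC7A5 was low as well, at -1.80 (-1.90 to -1.69) and -1.95 (-2.05 to -1.85), as was SLC6A8 at -1.93 and -2.37. SLC3A2 was high at 1.46 (1.37 to 1.54) and 0.98 (0.91 to 1.05), as were SLC1A5 at 1.00 and 0.75 and SLC38A5 at 0.82 and 1.33. The median over all genes measured in RNA was -0.10 in the OE-labelled and -0.11 in the knockout-labelled line.

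The length of untranslated sequence moved with this ratio. Over 7252 genes measured in both assays, taken as a description since genes of a library are not independent, the RNA-over-footprint ratio rose with the quotient of transcript to coding length (Spearman rho 0.302 and 0.272 in the OE-labelled and knockout-labelled lines). The listed SLC7A2 transcript has 7638 bases with 2091 coding, and that of SLC7A11 has 9645 with 1503 coding. With footprints taken per coding length and RNA per transcript length, SLC7A11 stood above 51.1% of genes in the OE-labelled line, in place of 13.1%, and above 24.3% in the knockout-labelled line, in place of 5.71%. SLC3A2 stood above 75.6% and 58.0% of genes, in place of 95.8% and 85.9%, so its high rank depended in part on the lengths used. SLC7A2 still stood above no more than 1.42% and 0.518% of genes. The part of the transcript over which the authors counted RNA reads is not given in the sources used here.

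**Figure D4:**
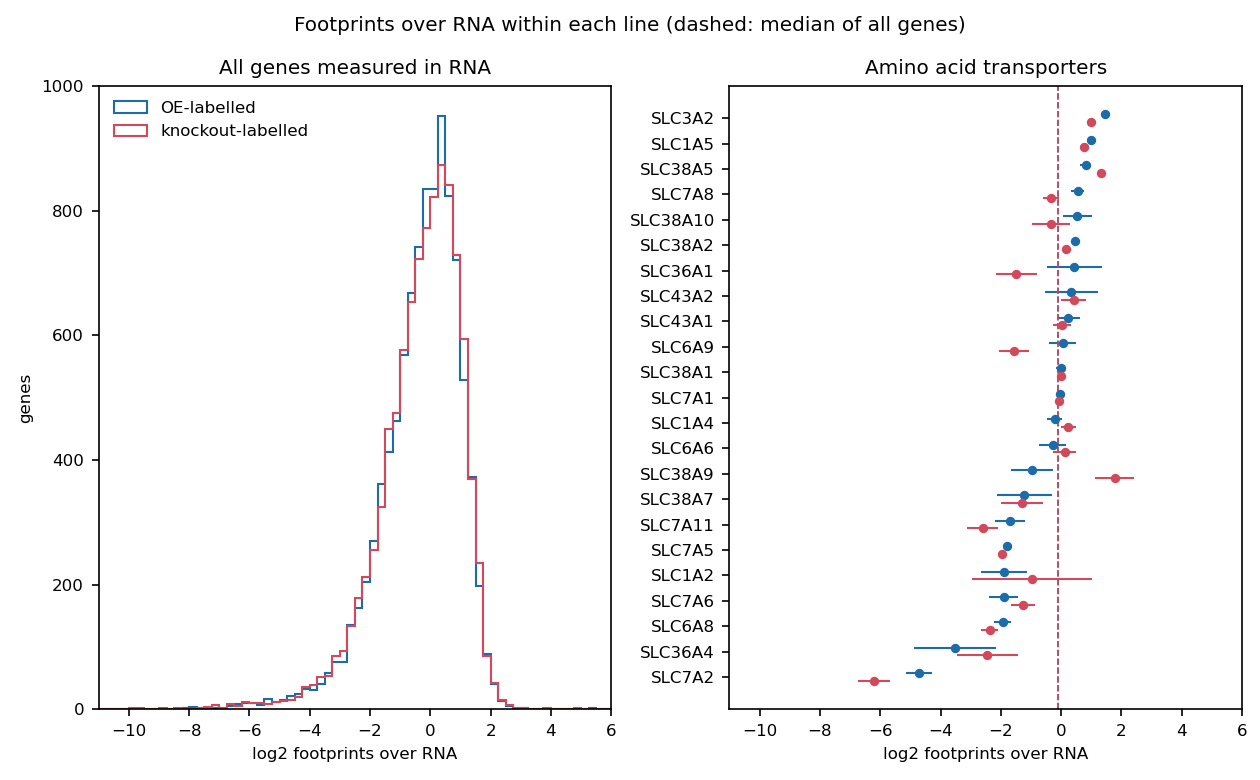
Log2 of footprints over RNA (each in CPM) within each line: the number of genes per bin for all 9855 genes measured in RNA (left), and the 23 transporters measured in RNA with 95% counting intervals (right), with the medians of all genes dashed. Most transporters lie within 2 log2 units of the medians, SLC36A4 lies lower in both lines, and SLC7A2 lies lowest in both lines at -4.72 and -6.21.

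The remaining 35 transporters were below the minimum in both assays, and 11 of them had no count in any library. Of the 35, 30 had at most 15 counts in each library, among them the heavy chain gene SLC3A1, the light chain gene SLC7A9 and 16 SLC6 genes. The other 5 are named here after their values were seen. SLC7A7, the light chain y+LAT1, had 54 and 6 RNA counts and 29 and 0 footprint counts. It was low in both knockout-labelled libraries, with an RNA ratio of -3.51 (-5.12 to -2.40) and footprints at least 11.7-fold lower against a floor of 3 counts per library. SLC1A3, the glutamate carrier EAAT1, had 18 and 0 RNA counts, at least 8.17-fold lower against the same floor, and 24 and 11 footprint counts. SLC1A1, the glutamate carrier EAAT3, had 32 and 26 RNA counts but 25 and 1 footprint counts, for a footprint ratio of -4.36 (-10.3 to -2.31). SLC43A3, a carrier of purine bases, had 29 and 22 RNA counts and 24 and 8 footprint counts. SLC38A6 had at most 42 counts in any library, and both of its intervals crossed 0.

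Genes that work with these carriers were listed beside them, and their counts are read against the same shares of all genes (10.5% higher and 10.5% lower in RNA, 15.0% and 14.1% in footprints). A list of further carriers of the plasma membrane, lysosome and mitochondria holds amino acid carriers and some with other substrates. In RNA 19 of them were measured, with 4 at least 1.5-fold higher, 1 lower (SLC15A4, a lysosomal carrier of histidine and peptides) and a median of 0.11. The 4 higher were the lysosomal amino acid exporters CTNS (1.00) and PQLC2 (0.65), SLC17A9 (0.80), which carries nucleotides, and SLC47A1 (1.1), which extrudes organic cations. In footprints 11 were measured, with 1 higher, 4 lower and a median of -0.10. PQLC2, a lysosomal exporter of cationic amino acids, passed 1.5-fold in both assays, with 57 and 122 RNA counts (0.65) and 29 and 88 footprint counts (1.31). PQLC2 footprints and SLC47A1 RNA (43 and 126 counts) passed the minimum through the library in which they were high and so had to differ. The same holds for footprints of SLC17A5 (63 and 46) and SLC25A38 (75 and 48), among the 4 lower. Of lysosomal amino acid sensing genes, 24 were measured in RNA, with 3 higher, 1 lower and a median of 0.13, and 18 in footprints, with 4 higher, 4 lower and a median of -0.23. Higher in both were SEC13 (0.92 and 0.81), a subunit of the GATOR2 complex and of the vesicle coat, and SESN2 (0.74 and 0.69), a leucine sensor. The 4 with lower footprints were RPTOR (-0.90), NPRL3 (-0.80), FNIP1 (-0.74) and NPRL2 (-0.63), none of them at least 1.5-fold different in RNA.

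The Rag and LAMTOR genes encode the partners through which SLC38A9 signals. RRAGA, the most abundant Rag GTPase gene in footprints, stood at 0.26 in RNA and 0.06 in footprints. RRAGD RNA was lower, at -0.74 (450 and 366 counts), and RRAGC RNA stood at -0.27. RRAGB, below the minimum, had 3 and 19 RNA counts. The LAMTOR genes, which anchor the Rag proteins at the lysosome, ranged from -0.20 (LAMTOR4) to 0.36 (LAMTOR3) in RNA. Footprints of LAMTOR1 (0.67) and LAMTOR4 (0.68) were higher in the knockout-labelled line, and those of LAMTOR2 (-0.12) and LAMTOR5 (0.21) were under 1.5-fold. LAMTOR1, with 44 and 85 footprint counts, passed the minimum through the library in which it was high. LAMTOR3 had 17 and 49 footprint counts, below the minimum (1.22, 0.43 to 2.14).

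All 15 genes of the amino acid deprivation response were measured in both assays. In RNA 3 of them were at least 1.5-fold higher (10.5% of all genes) and 0 lower (10.5%), with a median of 0.19. In footprints 3 were higher (15.0%) and 1 lower (14.1%), with a median of 0.32. DDIT3, which encodes the stress transcription factor CHOP, was higher in both (0.94 and 1.55), as was SESN2, which this list shares with the sensing list. ASNS (0.50 and 0.32), TRIB3 (0.46 and 0.43) and CEBPB (0.44 and 0.53) were above 0 in both assays, each under 1.5-fold, with intervals clear of 0. CHAC1 (0.36 and 0.32) was above 0 as well, but its intervals crossed 0. The list did not move as one. VLDLR passed 1.5-fold in RNA alone (1.03 and 0.51) and ATF4 in footprints alone (-0.21 and 0.63). GPT2 was the 1 lower in footprints (0.19 and -0.74). PSAT1 (-0.18 and -0.50), CEBPG (-0.06 and -0.51) and EIF2AK4 (-0.25 and -0.48) were below 0 in both.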

How the data were processed

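Size selection kept footprints between 18 and 34 nt and RNA between 18 and 50 nt, per the labels' protocols, with random identifiers of 4 and 5 nt in the linkers, rRNA depletion and 15 PCR cycles. Per the file headers, the authors deposited raw counts for 1 listed transcript of each gene. The submitters' processing notes name cutadapt 1.10, Bowtie 1.1.2, HISAT2 2.1.0 and GRCh38 without role. The counter, the annotation, the counted region, the use of strand and any collapsing of duplicates were not given in the sources used here. Counted PCR copies would make the intervals too narrow. One library's cell line field reads SW840 and its source field SW480, and it was taken as SW480.

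Within each assay, counts were scaled by TMM factors computed over all genes (edgeR 4.0.16, R 4.3.3). To form a log2 ratio, 0.5 was added to both counts. Its 95% interval is Clopper-Pearson, exact and conditional on the sum of both counts, and that of translational efficiency and of footprints over RNA is a Wald interval. With 1 library per line and assay nothing was tested. Transcript positions and lengths are from GENCODE release 29 (GRCh38), and promoter windows from RefSeq (GRCh38.p14), which held 19 of the 24 measured members. The ratio and interval steps were run on simulated Poisson counts scaled by a median ratio, without PCR copies or variation between cultures. That run checked the code alone, not whether the intervals are wide enough for these data. Other settings tried were scaling by size factors (DESeq2 1.42.0), by the upper quartile or by totals (all genes, or without the mitochondrial genome), other count minimums, thresholds and added counts, and subtraction of the median of the 20 nearest measured genes. All members measured in at least 1 assay are named with their counts. One further gene list is not reported here. The members, lists and settings were chosen with earlier results of these data known. Scripts ran in Python 3.11.15 with pandas 2.3.3, numpy 2.4.6, matplotlib 3.10.9 and scipy 1.17.1.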

Additional observations from a re-analysis of the deposited data

How the results depend on the processing

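Counts of members past 1.5-fold kept within 1.5 times their value under each of the 4 other scalings and with 5 added to each count. Scaling by totals reached that limit in RNA, where SLC43A1 and SLC38A7 joined the 4 higher members. It also raised the median RNA ratio of all genes from 0.01 to 0.13, and the share of all genes past 1.5-fold under it was not computed. The counts depended on the count minimum and the fold threshold. With no minimum, genes needed only a count in both libraries. In RNA, the 4 higher members became 1 of 14 at a minimum of 200 (6.95% of all genes) and 7 of 35 with none (15.2%), and the 3 lower became 6 of 29 at a minimum of 10 (13.9%), 1 of 14 at 200 (6.67%) and 7 of 35 with none (16.8%). In footprints, the 1 higher member became 3 of 26 at a minimum of 10 (19.3%) and 4 of 30 with none (20.2%), and the 2 lower became 9 of 26 (19.0%) and 10 of 30 (21.1%). In translational efficiency, 0 higher became 3 of 25 at a minimum of 10 (18.6%) and 5 of 27 with none (20.4%), and 1 lower became 9 of 25 (18.7%) and 9 of 27 (20.5%). At 2-fold, 2 members were higher in RNA (2.99% of all genes), 0 higher in footprints (4.66%) and 0 lower in efficiency (3.60%). The share of all genes past 3-fold was not computed, so counts of members at that threshold are not given. Subtracting the median of neighbouring genes left 0 members higher in footprints. The members below the median of footprints over RNA in the OE-labelled line were 6 of 12 measured in both assays. They were 11 of 23 among genes measured in RNA and 12 of 23 with lengths taken into account. In the knockout-labelled line these counts were 8 of 12, 12 of 23 and 11 of 23. Both settings with 23 members, and the heavy chain quotient per transcript length, were chosen after seeing the data. A change of scaling shifts all ratios of an assay by the same amount. Over the scalings tried, the median ratio of all genes ran from -0.01 to 0.13 in RNA and from 0.02 to 0.05 in footprints. No ratio past 1.5-fold could therefore change direction, so its direction was not checked by these settings. No paired analysis was possible because each line gave 1 library per assay. Depth limits the members with under 50 footprint counts most, among them SLC7A2, SLC38A9 and SLC1A2.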
